A study of Mus musculus with 71 samples.

Results

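Receptor tyrosine kinases and the MAP kinase cascade switch on their own inhibitors, and 10 genes of this feedback were followed here in the hippocampal translatome of mice trained in an object recognition memory (ORM) task. They were taken by name, with earlier results of these data known, and comprise 9 inhibitors, Dusp1, Dusp4, Dusp5, Dusp6, Spry1, Spry2, Spry4, Spred1 and Errfi1, with Mapk3 as the kinase of the pathway. All 10 were among the 57010 genes of the count table and among the 30141 genes tested. The 71 mice were wild-type male C57BL/6J animals housed 6 to a cage and put on their diet at weaning. NC ad lib mice had normal chow with unlimited access, HFS ad lib mice a high-fat and high-sucrose diet with unlimited access, and HFS TRF the same HFS diet with food restricted, in the last weeks, to a daily window around the dark phase. In each diet, mice were taken from the home cage at zeitgeber time 3 (HC zt3) or 15 (HC zt15), that is, 3 or 15 h after lights on, or after a training session with objects, 1 h later (ORM+1 h, the partner of HC zt3) or 12 h later (ORM+12 h, the partner of HC zt15). The HC zt3 and ORM+1 h mice belonged to one experiment and the HC zt15 and ORM+12 h mice to another. There were 6 mice in each of 11 groups and 5 in HFS TRF HC zt15.

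In this pathway a growth factor or neurotrophin activates a receptor tyrosine kinase at the membrane, Ras passes the signal to the kinases Raf, MEK and ERK, and ERK moves partly to the nucleus, where it raises transcription of immediate early genes. Among the genes that ERK raises are inhibitors that act at each level of the route, so that the signal ends itself. In hippocampal neurons this cascade is engaged by synaptic activity and is needed for several lasting forms of synaptic plasticity and memory. The phosphatases DUSP1, DUSP4, DUSP5 and DUSP6 remove phosphate from MAP kinases, Sprouty and Spred proteins act between the receptor and Raf, ERRFI1 binds the EGF receptor family, and Mapk3 encodes ERK1.

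mRNA was bound to ribosomes that carry phosphorylated S6, a mark raised in active cells, and was purified with an antibody to that mark (pS6-TRAP) from the hippocampus. Values are therefore ribosome-bound mRNA of a mixture of cell types, and fewer cells of a type and less RNA per cell cannot be told apart. Libraries held between 34698914 and 62758570 counts, and the lowest count of a member in a mouse was 318 (Spry1). The coefficient of variation of Spry1 was 6.33% in NC ad lib ORM+1 h mice, and the part of counting error in it was not tested. Neuronal markers were present in each group, with medians of summed CPM (counts scaled to library size) from 10838 to 14264 over 7 genes. Markers of choroid plexus, a tissue beside the hippocampus, varied from 97.8 to 18652 summed CPM between mice, whereas the 6 endothelial markers summed to 14.7 CPM at most.

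The promoters of the members give their start sites a context. The RefSeq promoter table (GRCm38.p6) held 7 of the 10 members, Dusp1, Dusp5, Dusp6, Spry1, Spry2, Spred1 and Errfi1, and the 250 bases before the start were searched on both strands for the cAMP response element (CRE, TGACGTCA), its short form (TGACG, which lies within each CRE), the AP-1 site (TGANTCA), an ETS site (CCGGAAGT), an EGR site (GCGTGGGCG) and the CArG box bound by serum response factor. Of 32536 distinct promoters of that length, 1.56% held a CRE, 17.9% the short form, 6.73% an AP-1 site, 2.9% an ETS site, 0.541% an EGR site and 1.48% a CArG box. Matches were found upstream of Dusp1, Dusp5 and Errfi1, which are shown because they hold them, 5′ to 3′ and ending at the base before the start, with matches in capitals. Dusp6 is shown as a member with no match.
Dusp1: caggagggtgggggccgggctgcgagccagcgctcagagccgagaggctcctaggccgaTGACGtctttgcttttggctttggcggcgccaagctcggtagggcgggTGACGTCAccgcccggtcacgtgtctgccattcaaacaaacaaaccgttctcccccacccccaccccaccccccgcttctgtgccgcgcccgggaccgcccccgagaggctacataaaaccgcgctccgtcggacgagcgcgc
Dusp5: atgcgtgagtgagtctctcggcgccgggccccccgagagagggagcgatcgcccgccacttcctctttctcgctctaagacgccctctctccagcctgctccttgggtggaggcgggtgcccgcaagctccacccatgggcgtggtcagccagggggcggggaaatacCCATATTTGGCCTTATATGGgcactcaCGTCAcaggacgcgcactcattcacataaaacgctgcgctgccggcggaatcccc
Errfi1: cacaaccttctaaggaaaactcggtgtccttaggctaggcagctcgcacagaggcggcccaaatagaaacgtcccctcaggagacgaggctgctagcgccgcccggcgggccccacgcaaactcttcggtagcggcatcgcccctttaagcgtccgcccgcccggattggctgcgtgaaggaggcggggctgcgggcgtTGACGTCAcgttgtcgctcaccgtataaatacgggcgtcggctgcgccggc
Dusp6: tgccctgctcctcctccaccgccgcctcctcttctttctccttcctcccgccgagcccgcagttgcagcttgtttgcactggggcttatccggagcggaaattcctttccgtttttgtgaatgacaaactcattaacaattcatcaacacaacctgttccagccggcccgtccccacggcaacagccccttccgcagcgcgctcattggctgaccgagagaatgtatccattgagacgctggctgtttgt
The Dusp1 bases lie at chr17:26508473-26508722 on the minus strand, with a CRE from 143 to 136 bases before the start and the short form from 191 to 187. The Dusp5 bases, chr19:53528895-53529144 on the plus strand, hold 2 adjacent CArG boxes, from 82 to 73 and from 72 to 63 bases before the start, and the short form from 55 to 51. The Errfi1 bases, chr4:150854820-150855069 on the plus strand, hold a CRE from 51 to 44 bases before the start, and an upstream alternative start of Errfi1 held none of the motifs. The Dusp6 bases lie at chr10:99262981-99263230 on the plus strand. No motif of the set was found in the windows of Spry1, Spry2 and Spred1. A match is a string of letters and was not tested for binding. On GRCm39, the build of the counts, the gene bodies of 5 of the members not shown lie at chr7:126358723-126364991 for Mapk3, chr8:35274442-35287048 for Dusp4, chr3:37693897-37698755 for Spry1, chr14:106128766-106136446 for Spry2 and chr2:116951524-117018277 for Spred1.

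At rest the kinase stood well above its inhibitors. Levels between genes are given as CPM per kilobase (kb) of annotated exon in the 18 HC zt3 mice of the 3 diets. Mapk3 had 56.0 ± 4.24 CPM per kb (SD, n = 18), and no mouse of any other member reached its lowest value of 47.7. Dusp6, an ERK phosphatase of the cytoplasm, came next with 23.6 ± 2.62, followed by Dusp5, a nuclear ERK phosphatase, with 15.8 ± 2.85. Dusp4 had 13.5 ± 1.39, Spry2 11.5 ± 1.15, Spred1 10.6 ± 1.84 and Errfi1 9.23 ± 1.26 CPM per kb. Neighbours in the order from Dusp6 to Errfi1 overlapped in their ranges over mice, and apart from Dusp6 and Dusp5 and from Dusp4 and Spry2 their means differed by less than the larger SD of the pair. Dusp1 followed with 4.93 ± 1.70, and its highest mouse (8.27) just reached into the Errfi1 range (lowest 8.02). Spry4 and Spry1 were lowest with 2.41 ± 0.45 and 2.25 ± 0.28, and their ranges overlapped. Per kb of the canonical transcript alone, Spry2 (18.2) stood above Dusp5 (15.8), and Spry1 (3.97) above Spry4 (3.34). Dusp1 varied most between mice of a group, with a median coefficient of variation of 23.6% over the 12 groups, and Mapk3 least, with 6.94%.

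**Figure D1:**
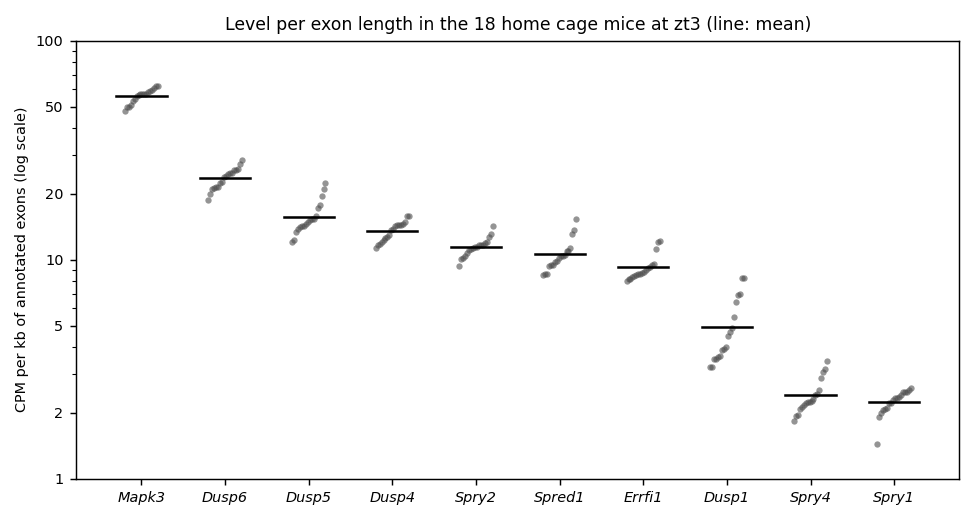
CPM per kb of annotated exon of each member (log axis) in the 18 home cage mice at zt3, 1 point per mouse and a line at the mean. Mapk3 lies between 47.7 and 62.1, apart from the inhibitors, which run from Dusp6 at 23.6 down to Spry1 at 2.25.

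One hour after training, 8 of the 9 inhibitors were higher than in home cage mice on all 3 diets, and the exception was Spry1 on each of them. The 4 dual-specificity phosphatases, Spry2, Spry4, Spred1 and Errfi1 rose between 1.32 and 2.35 times, whereas Mapk3 fell to 0.851 times its home cage level under NC ad lib and to 0.838 times under HFS TRF. The calls come from the quasi-likelihood test of edgeR at a Benjamini-Hochberg adjusted p below 0.05 and stand beside 4.03% of all genes called higher under NC ad lib, 0.74% under HFS ad lib and 2.24% under HFS TRF, and 1.7%, 0.491% and 0.624% called lower. The median log2 fold change of the 9 inhibitors was 0.67 under NC ad lib, 0.54 under HFS ad lib and 0.86 under HFS TRF, beside 0.00, 0.00 and -0.01 over all genes. Trained and home cage mice did not overlap for 8 inhibitors under NC ad lib, 6 under HFS ad lib and 8 under HFS TRF, where 3.19%, 0.819% and 2.14% of all genes had all trained mice above all home cage mice.

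**Figure D2:**
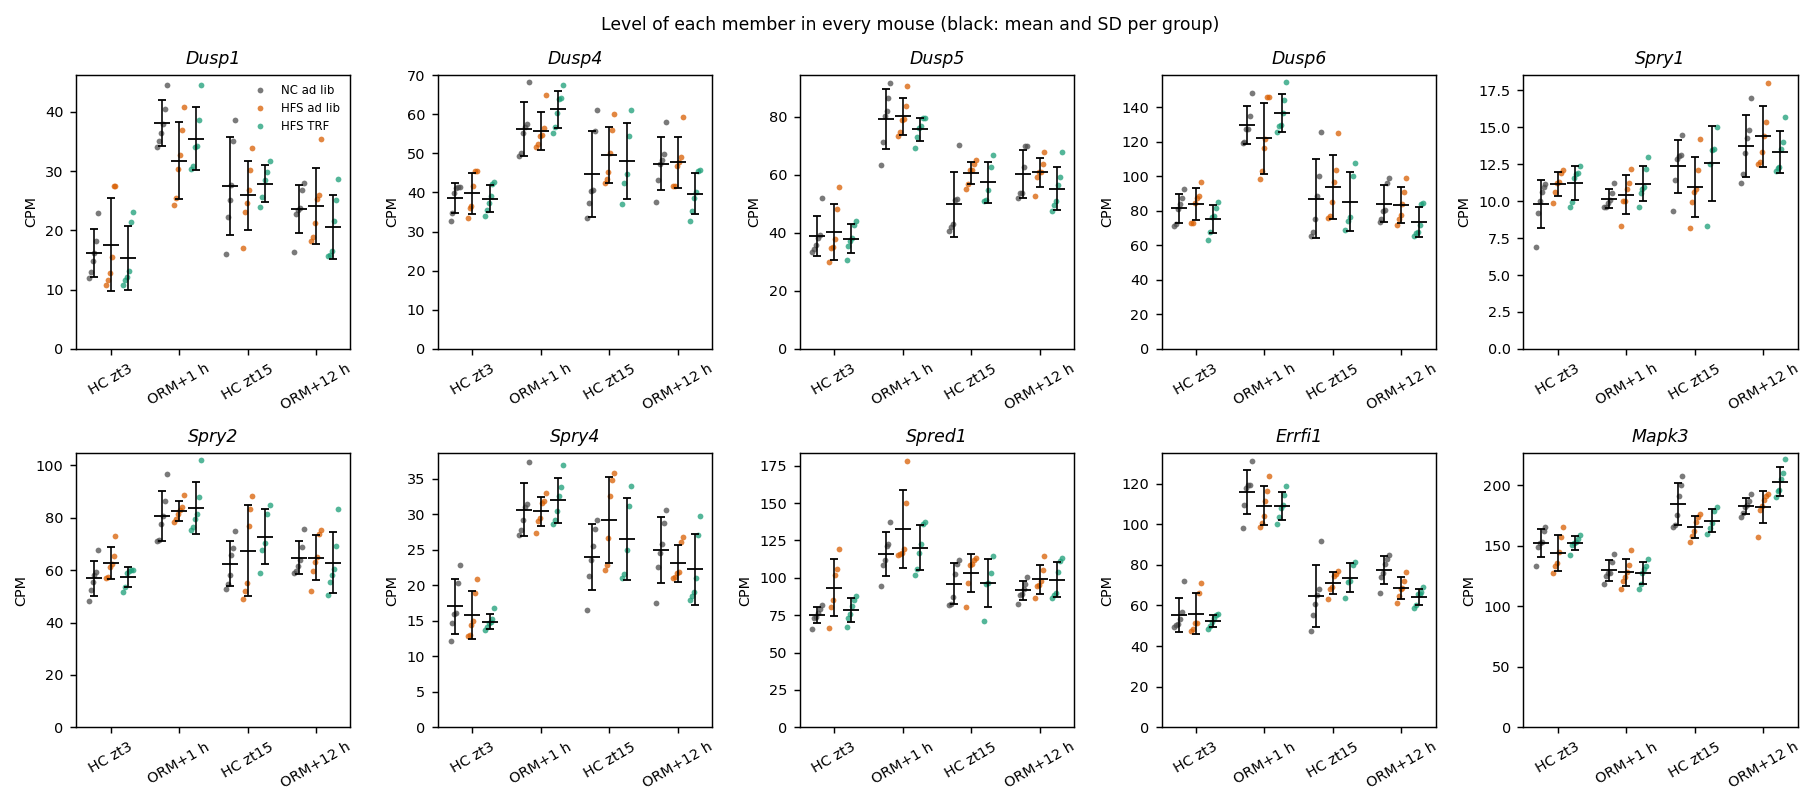
CPM of the 10 members (linear axes from 0) in each of the 71 mice, by condition and diet, with the mean and SD of each group in black. Errfi1 lies at 98.4 to 131.0 CPM at ORM+1 h against 47.5 to 71.9 at HC zt3, whereas the Spry1 mice of these conditions overlap (8.31 to 13 against 6.89 to 12.4).

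Among the phosphatases, Dusp1, which acts on p38, JNK and ERK in the nucleus, had the largest changes under NC ad lib and HFS TRF. Dusp1 was measured at 12.0 to 23.0 CPM in NC ad lib HC zt3 mice (median 15.5) and at 34.1 to 44.5 at ORM+1 h (median 37.2). All 6 trained mice were above all 6 controls (log2 fold change 1.23 ± 0.20 SE, adjusted p = 2.1e-05). Under HFS ad lib Dusp1 went from 10.7 to 27.5 CPM (median 14.2) to 24.3 to 40.9 (median 31.5), and 4 of 6 trained mice were above all controls (0.85 ± 0.20, adjusted p = 0.014). Under HFS TRF it went from 10.7 to 23.1 CPM (median 12.6) to 30.4 to 44.4 (median 34.2), again without overlap (1.2 ± 0.20, adjusted p = 5.1e-05). In the HFS ad lib home cage 2 mice were at 27.4 and 27.5 CPM and the other 4 at 10.7 to 15.5. That call was lost without home cage replicate 1, 2 or 4 (adjusted p = 0.069, 0.073 and 0.058) and when only the groups compared entered the fit (adjusted p = 0.11).

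Dusp5, the nuclear ERK phosphatase, about doubled on each diet. It was measured at 33.3 to 52.2 CPM (median 37.1) in NC ad lib home cage mice and at 63.3 to 91.5 (median 81.1) 1 h after training, with a log2 fold change of 1.02 ± 0.11. HFS ad lib mice had 29.8 to 55.8 CPM (median 36.5) at rest and 73.3 to 90.7 (median 79.1) after training, a change of 0.99 ± 0.11. The HFS TRF groups had 30.5 to 44.0 (median 37.7) and 69.1 to 79.5 (median 76.6), also a change of 0.99 ± 0.11. The groups did not overlap on any diet, and the adjusted p was 9.7e-10, 5.0e-09 and 2.2e-09. A gene antisense to an exon of Dusp5, Gm50394, is annotated on GRCm39, and since the strand setting of the counting was not given in the sources used here, the values may hold its reads too; the same applies to Dusp6, Spry1, Spry2 and Errfi1.

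Dusp6, the cytoplasmic ERK phosphatase, rose from 71.3 to 92.4 CPM (median 82.4) to 119.3 to 148.5 (median 127.3) under NC ad lib (log2 fold change 0.67 ± 0.12, adjusted p = 6.0e-05). Under HFS ad lib it was 73.0 to 96.4 CPM (median 85.9) at rest and 98.4 to 146.1 (median 118.9) after training (0.54 ± 0.12, adjusted p = 0.0057). Under HFS TRF the values were 63.3 to 84.8 (median 76.7) and 125.4 to 154.3 (median 133.0), a change of 0.86 ± 0.12 (adjusted p = 4.5e-07). Dusp4, a nuclear phosphatase of ERK and JNK, had smaller changes of 0.55, 0.49 and 0.67 (SE 0.11 each, adjusted p = 0.00061, 0.010 and 4.7e-05). Its home cage mice lay between 32.7 and 45.6 CPM over the 3 diets and its trained mice between 49.4 and 68.4. Neither Dusp6 nor Dusp4 overlapped between trained and home cage mice on any diet.

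Sprouty proteins block the route from receptor to Ras and Raf, and of the 3 Sprouty genes Spry4 and Spry2 rose while Spry1 did not pass the test. Spry4 was measured at 12.1 to 22.8 CPM (median 16.0) in NC ad lib HC zt3 mice and at 27.1 to 37.4 (median 30.1) at ORM+1 h, at 12.8 to 20.9 (median 14.7) and 27.4 to 33.0 (median 30.5) under HFS ad lib, and at 13.7 to 16.8 (median 14.7) and 28.7 to 36.9 (median 31.5) under HFS TRF. Trained mice were above all controls on each diet, with log2 fold changes of 0.85, 0.94 and 1.1 (SE 0.14 each, adjusted p = 2.0e-05, 5.1e-06 and 4.3e-08). Spry2 changed less, by 0.51, 0.40 and 0.55 (SE 0.11 each, adjusted p = 0.0012, 0.047 and 0.00098), from home cage values of 48.3 to 73.1 CPM to 71.3 to 102.1 over the 3 diets, without overlap within a diet. The Spry2 call under HFS ad lib was lost without home cage replicate 1, 2, 3 or 4 or ORM+1 h replicate 2, 3, 4, 5 or 6 (adjusted p 0.063 to 0.13). Spry1 gave log2 fold changes of 0.05, -0.10 and -0.00 (SE 0.12 each), with 95% intervals of -0.18 to 0.28, -0.33 to 0.13 and -0.23 to 0.23. The Spry1 mice of HC zt3 lay between 6.89 and 12.4 CPM and those of ORM+1 h between 8.31 and 13, so the groups overlapped on each diet.

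Spred1, which brings neurofibromin to Ras at the membrane, was measured at 66.0 to 81.9 CPM (median 75.0) in NC ad lib HC zt3 mice and at 94.4 to 137.2 (median 116.7) after training (log2 fold change 0.63 ± 0.11, adjusted p = 5.3e-05). For HFS TRF it was 66.8 to 88.0 (median 78.2) and 101.7 to 137.5 (median 119.7), a change of 0.62 ± 0.11 (adjusted p = 0.00013). Neither diet showed overlap. Under HFS ad lib the home cage values were spread from 66.6 to 119.4 (median 93.8) and the trained ones from 115.3 to 178.0 (median 118.0), with 3 of 6 trained mice above all controls (0.51 ± 0.11, adjusted p = 0.0051). Without replicate 6 of the HFS ad lib ORM+1 h mice the Spred1 change was 0.40 (adjusted p = 0.055), and with only these groups in the fit its adjusted p was 0.12.

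Errfi1, whose product MIG6 binds and inhibits the EGF receptor kinase, had the smallest adjusted p of all members on each diet. Errfi1 was 49.2 to 71.9 CPM (median 52.2) in NC ad lib home cage mice and 98.4 to 131.0 (median 118.6) 1 h after training, 47.5 to 71.1 (median 51.3) and 98.8 to 123.7 (median 107.8) under HFS ad lib, and 48.3 to 55.8 (median 52.9) and 100.1 to 118.7 (median 108.7) under HFS TRF. The lowest trained mouse was thus above the highest control on each diet. The log2 fold changes were 1.06, 0.96 and 1.06 (SE 0.09 each, adjusted p = 7.1e-13, 4.7e-11 and 1.0e-12).

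Mapk3 moved the other way and by little. It was 133.1 to 165.4 CPM (median 152.8) at HC zt3 and 118.4 to 143.3 (median 127.7) at ORM+1 h under NC ad lib, and 4 of 6 trained mice were below all controls (log2 fold change -0.23 ± 0.06, adjusted p = 0.0097). For HFS TRF Mapk3 was 142.3 to 158.5 (median 152.5) and 114.6 to 139.3 (median 129.4), with all 6 trained mice below all controls (-0.25 ± 0.06, adjusted p = 0.0079), a separation that 1.38% of all genes showed in that direction. HFS ad lib mice had 127.5 to 165.8 (median 140.2) and 114.0 to 146.2 (median 126.0), a difference of -0.17 ± 0.06 that did not pass the test (adjusted p = 0.18). The Mapk3 calls at ORM+1 h, under NC ad lib, under HFS TRF and in the mean of the diets, were lost when a fold change above 1.2 was required as well.

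**Figure D3:**
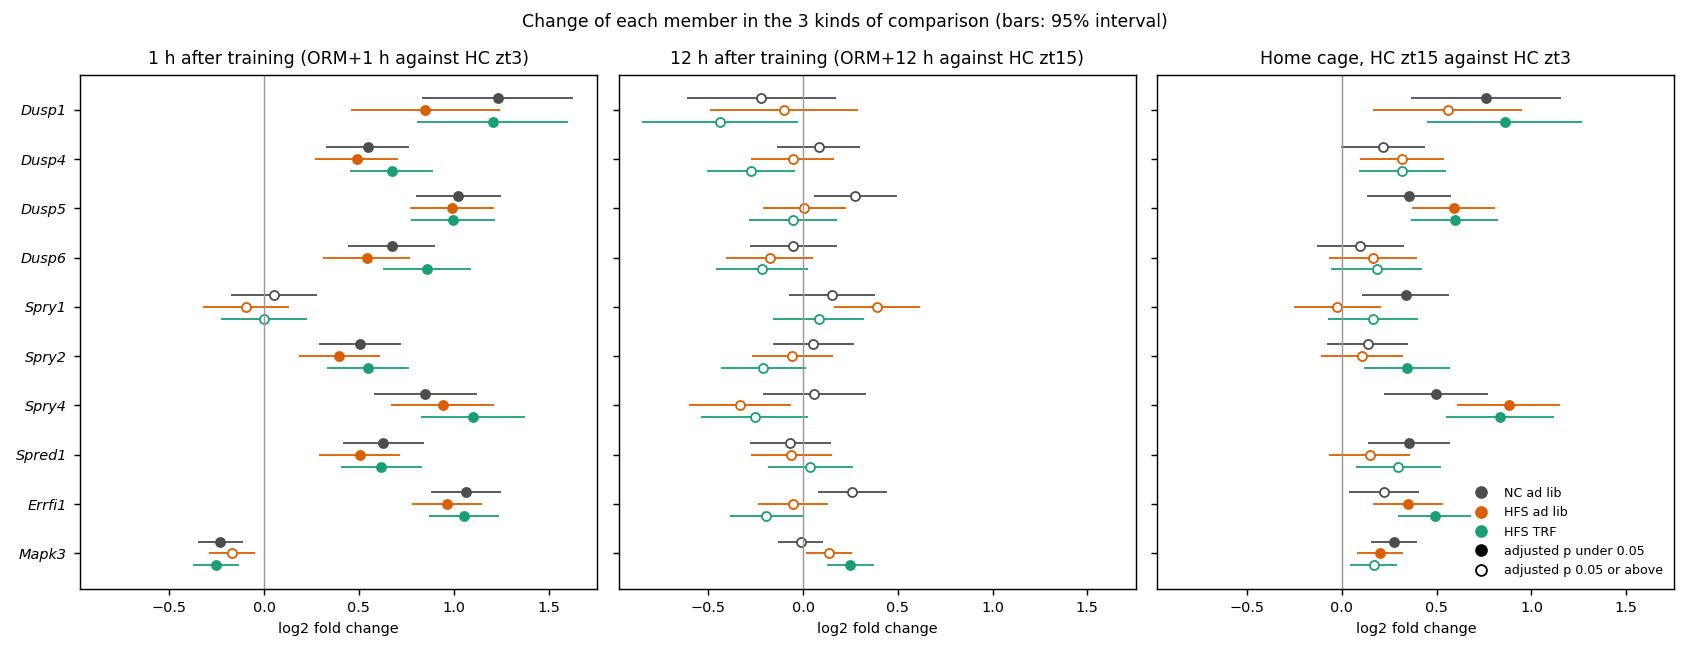
log2 fold change of each member (points, with bars for the 95% interval) 1 h after training, 12 h after training and between home cage mice at zt15 and zt3, by diet; filled points have an adjusted p under 0.05. At 1 h after training 8 inhibitors lie right of 0 on each diet and Mapk3 left of it, at 12 h after training only Mapk3 under HFS TRF is filled, and between zt15 and zt3 Spry4 and Dusp5 are filled on each diet.

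Over the mean of the 3 diets, the ORM+1 h change was 1.1 for Dusp1, 1.03 for Errfi1, 1.00 for Dusp5, 0.96 for Spry4, 0.69 for Dusp6, 0.58 for Spred1, 0.57 for Dusp4 and 0.48 for Spry2, and it was -0.02 for Spry1 and -0.22 for Mapk3 (SE 0.04 to 0.12). In this contrast, 8.04% of all genes were called higher and 6.59% lower. All but Spry1 passed the test.

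Markers of astrocytes, the glial cells that take up glutamate, also rose 1 h after training, though without a call under HFS ad lib. All 6 of these markers (Gfap, Aqp4, Aldh1l1, Slc1a3, Gja1 and S100b) were called higher at ORM+1 h under NC ad lib, 5 under HFS TRF and 0 under HFS ad lib, beside 4.03%, 2.24% and 0.74% of all genes. Their summed CPM went from 392 to 586 in home cage mice to 965 to 1592 in trained mice under NC ad lib, from 311 to 1127 to 585 to 1426 under HFS ad lib, and from 274 to 795 to 673 to 1291 under HFS TRF. None of them was at 0 in a group. The 7 neuronal markers had 2 lower calls under NC ad lib, where 1.7% of all genes were called lower, and 0 on the other diets. Their summed CPM went from 12133 to 14124 at HC zt3 to 10698 to 12077 at ORM+1 h under NC ad lib, without overlap. The medians went from 13210 to 11996 under HFS ad lib and from 13376 to 12038 under HFS TRF, with overlap. The part of these sums in the Mapk3 change was not tested. A fit that holds the summed astrocyte markers as a covariate, chosen after seeing the data, moved Dusp1 more than any other member. The ORM+1 h change of Dusp1 became 0.58 under NC ad lib (adjusted p = 0.12), 0.56 under HFS ad lib (adjusted p = 0.078) and 0.71 under HFS TRF (adjusted p = 0.021). The other 7 inhibitors that rose kept their calls on each diet, with changes of 0.43 to 1.12, and Mapk3 changed by -0.26 under NC ad lib and -0.28 under HFS TRF. Over all 30141 genes, 323 were called higher in this fit under NC ad lib, 302 under HFS ad lib and 468 under HFS TRF. Without the markers these counts were 1215, 223 and 676. With them 169, 157 and 154 genes were called lower. The part of astrocyte mRNA in the Dusp1 change beyond this fit was not tested.

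**Figure D4:**
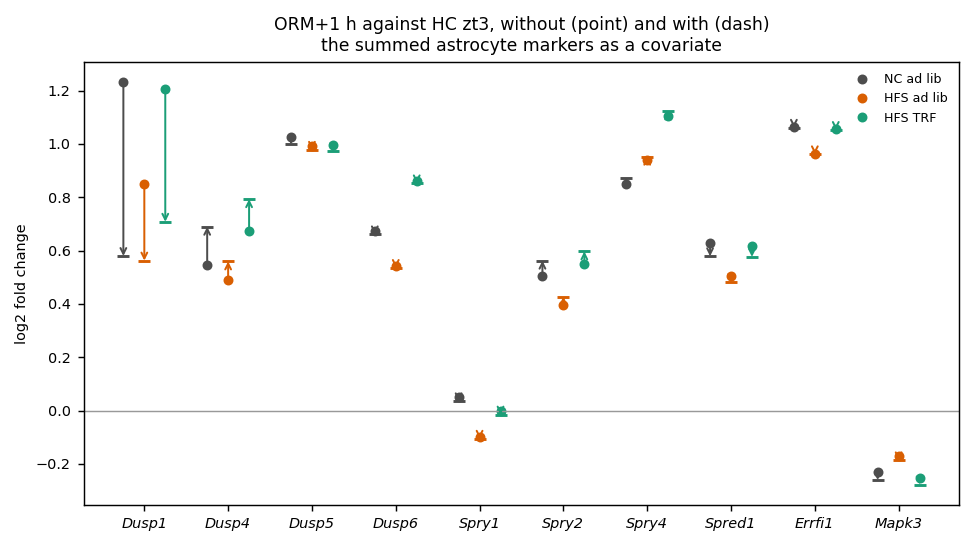
log2 fold change of each member at ORM+1 h against HC zt3, by diet, without (points) and with (dashes at the arrow ends) the summed astrocyte markers in the fit. Dusp1 drops from 1.23 to 0.58, from 0.85 to 0.56 and from 1.2 to 0.71, while Errfi1 stays at 1.06 under NC ad lib and 0.96 under HFS ad lib.

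No difference between diets passed the test for any member. Over 8 comparisons between diets at a matched condition (HFS ad lib against NC ad lib and HFS TRF against HFS ad lib) none of the 80 member tests passed, with the smallest adjusted p at 0.27, and 7 had an unadjusted p under 0.05. The share of all genes called was 0% in 5 of them, and 0.063% at HC zt15 and 2.27% at ORM+12 h for HFS ad lib against NC ad lib and 0.00664% at ORM+12 h for HFS TRF against HFS ad lib. The DESeq2 Wald test also gave 0 member calls. The largest of these differences was Spred1 in home cage mice at zt3, 0.31 higher under HFS ad lib than under NC ad lib, with a 95% interval of 0.10 to 0.53 (adjusted p = 0.59). The 6 interactions of diet with training or time gave 0 member calls of 60, 3 with an unadjusted p under 0.05, and a smallest adjusted p of 0.17. Over all genes the share called was 0.106% for HFS ad lib minus NC ad lib at ORM+12 h and 0% in the other interactions. For Dusp1 at 1 h after training, the HFS ad lib response minus the NC ad lib response was -0.38 with an interval of -0.94 to 0.17, so at this spread neither equal responses nor a weaker one under HFS ad lib can be told from these mice.

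At 12 h after training no inhibitor passed the test against its home cage partner. None of the 9 was called on any diet, where 0.209% of all genes were called in either direction under NC ad lib, 0.179% under HFS ad lib and 2.46% under HFS TRF. By the DESeq2 Wald test, 1 member was called under HFS ad lib (Spry1). At an unadjusted p under 0.05 there were 2, 3 and 3 members. The 9 inhibitors had a median log2 fold change of 0.06 under NC ad lib, -0.06 under HFS ad lib and -0.21 under HFS TRF. Errfi1 lay at 47.6 to 91.8 CPM in NC ad lib HC zt15 mice (median 62.8) and at 66.3 to 85.1 at ORM+12 h (median 78.1), a difference of 0.26 ± 0.09 (adjusted p = 0.19). Dusp1 under HFS TRF was 23.9, 25.6, 28.4, 29.8 and 31.6 CPM in the 5 home cage mice and 15.6 to 28.6 (median 19.1) in the trained ones, a difference of -0.44 ± 0.21 (adjusted p = 0.21). Spry1 under HFS ad lib was 8.20 to 14.2 CPM (median 10.7) and 12.5 to 18 (median 13.9), with 3 of 6 trained mice above all controls (0.39 ± 0.12, adjusted p = 0.12). Groups overlapped for each of the 9 inhibitors on each diet, where 0.259%, 0.119% and 1.18% of all genes had all trained mice above all home cage mice. Median sums of the choroid plexus markers were far apart between these groups, with overlapping ranges. At HC zt15 and ORM+12 h they were 4933 and 375 CPM under NC ad lib, 723 and 5386 under HFS ad lib and 7800 and 403 under HFS TRF. With this sum in the fit 0 members were called on each diet. Under HFS TRF 741 genes were called without it, and 142 higher and 58 lower with it.

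Mapk3 was the one member called at this time. Under HFS TRF Mapk3 was 160.1, 164.8, 168.5, 178.7 and 181.8 CPM in the 5 home cage mice and 190.2 to 221.4 (median 200.7) at ORM+12 h. All 6 trained mice were above all controls (0.25 ± 0.06, adjusted p = 0.025), as were 1.18% of all genes. The call was lost without replicate 1, 4 or 5 of the HC zt15 mice or replicate 3 of the ORM+12 h mice (adjusted p 0.051 to 0.086) and with the choroid plexus markers in the fit (0.22, adjusted p = 0.068). Between these HFS TRF groups, markers of myelinating oligodendrocytes summed to 697 to 913 CPM at HC zt15 and 960 to 1149 at ORM+12 h, without overlap. On the other diets these sums overlapped. Neuronal markers summed to 11658 to 13021 and 12988 to 14718 CPM under HFS TRF. The part of either in the Mapk3 change was not tested. Mapk3 differed by -0.01 under NC ad lib and 0.14 under HFS ad lib (SE 0.06 each, adjusted p = 1.0 and 0.25), and over the mean of the diets by 0.12 ± 0.04 (adjusted p = 0.026), where 6.03% of all genes were called. Without NC ad lib HC zt15 replicate 2 this mean was 0.12 (adjusted p = 0.053), with the choroid plexus markers in the fit it was 0.11 (adjusted p = 0.054) while Spry1 was called (0.24, adjusted p = 0.030), and with only the groups compared the Mapk3 adjusted p was 0.072.

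The change 12 h after training was set against the change 1 h after training in each diet, a comparison in which time of day, experiment and hours since training cannot be told apart. Under NC ad lib 6 members differed (Dusp1, Dusp5, Dusp6, Spry4, Spred1 and Errfi1), all lower at the later time, where 4.73% of all genes were called lower. Under HFS ad lib 4 differed (Dusp5, Dusp6, Spry4 and Errfi1; 0.62% of all genes lower), and under HFS TRF 8 inhibitors, all but Spry1, were lower (2.69%) and Mapk3 was higher (1.84%). For Errfi1 the difference was -0.80 ± 0.13 under NC ad lib, -1.02 ± 0.13 under HFS ad lib and -1.25 ± 0.14 under HFS TRF (adjusted p = 8.5e-05, 7.7e-07 and 1.7e-09). Mapk3 under HFS TRF differed by 0.50 ± 0.09 (adjusted p = 0.00015).

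In untrained mice several inhibitors were higher at zt15, early in the dark phase, than at zt3. Because those mice came from separate experiments, the hour and the experiment cannot be told apart here. This comparison shares the HC zt3 mice with the ORM+1 h comparison and the HC zt15 mice with the ORM+12 h comparison, so each is given by its own values. Under NC ad lib 6 members were higher, under HFS ad lib 4 and under HFS TRF 5, beside 5.18%, 3.88% and 5.95% of all genes, and 0 were lower on any diet, beside 6.54%, 6.54% and 8.26%. Spry4 and Dusp5 were called on all 3 diets. Spry4 lay at 16.5 to 29.2 CPM (median 24.5) at zt15 under NC ad lib, 0.50 ± 0.14 above zt3 (adjusted p = 0.0099), and at 22.1 to 35.8 (median 29.5) under HFS ad lib, 0.88 ± 0.14 above it (adjusted p = 1.8e-06). Under HFS TRF Spry4 was 21.0, 21.5, 24.9, 31.1 and 34.0 CPM, 0.83 ± 0.15 above zt3 (adjusted p = 1.2e-05). Both HFS diets showed no overlap for Spry4, as did 1.24% of all genes under HFS ad lib and 3.10% under HFS TRF.

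Dusp5 was 40.6 to 70.3 CPM (median 47.1) at zt15 under NC ad lib, 55.3 to 65.1 (median 61.6) under HFS ad lib, and 51.0, 51.2, 54.9, 62.8 and 66.9 under HFS TRF. Its differences from zt3 were 0.36, 0.59 and 0.59 (SE 0.11, 0.11 and 0.12, adjusted p = 0.026, 8.8e-05 and 0.00013), and the groups were apart under HFS TRF but not on the other diets. The NC ad lib call was lost without HC zt3 replicate 3, 4 or 5 or HC zt15 replicate 4 (adjusted p 0.060 to 0.16) and with only the groups compared (adjusted p = 0.11). Dusp1 was higher by 0.76 ± 0.20 under NC ad lib and 0.86 ± 0.21 under HFS TRF (adjusted p = 0.0059 and 0.0021) and stood at 0.56 ± 0.20 under HFS ad lib (adjusted p = 0.061). Errfi1 was higher by 0.35 under HFS ad lib and 0.49 under HFS TRF (adjusted p = 0.0082 and 0.00016) and at 0.22 under NC ad lib (adjusted p = 0.12). Dusp1, Errfi1 and Mapk3 also had all HFS TRF mice at zt15 above all at zt3, although the Mapk3 difference of 0.17 did not pass (adjusted p = 0.067). Whether the diets differed in these values was tested by interaction, and no member passed, where 0% of all genes were called.

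The other calls at zt15 were smaller. Mapk3 was higher by 0.28 ± 0.06 under NC ad lib, 165.8 to 207.9 CPM (median 183.0) against 133.1 to 165.4 without overlap (adjusted p = 0.00073; 1.54% of all genes did not overlap in this direction), and by 0.20 ± 0.06 under HFS ad lib (adjusted p = 0.021). Spred1 under NC ad lib was higher by 0.35 (adjusted p = 0.021), Spry2 under HFS TRF by 0.34 (adjusted p = 0.032) and Spry1 under NC ad lib by 0.34 (adjusted p = 0.047). The Mapk3 call under HFS ad lib was lost without HC zt3 replicate 1, 2 or 6 or HC zt15 replicate 1 or 6 (adjusted p 0.053 to 0.077) and with only the groups compared (adjusted p = 0.093), or when a fold change above 1.2 was required as well. Spred1 lost its call without HC zt3 replicate 1 or HC zt15 replicate 3 or 4 (adjusted p 0.060 to 0.067), and Spry2 without HC zt3 replicate 5 or 6 or HC zt15 replicate 4 or 5 (adjusted p 0.061 to 0.12). Spry1 lost it without HC zt3 replicate 1, 2 or 4 or HC zt15 replicate 1, 2, 3 or 6 (adjusted p 0.066 to 0.16), with only the groups compared (adjusted p = 0.13), with the replicate block (adjusted p = 0.055) and with the choroid plexus markers in the fit (adjusted p = 0.084). Over the mean of the diets 8 members were higher, beside 12.7% of all genes, and Dusp6 (0.15, adjusted p = 0.10) and Spry1 (0.16, adjusted p = 0.072) were not called.

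The astrocyte markers were also higher at zt15, with 6 of 6 called under NC ad lib, 1 under HFS ad lib and 5 under HFS TRF, beside 5.18%, 3.88% and 5.95% of all genes. The markers had sums of 448 to 1378, 607 to 1395 and 936 to 1332 CPM. With their sum in the fit, 2 members remained called under NC ad lib, Spry4 (0.51) and Mapk3 (0.25). On the other diets Mapk3 under HFS ad lib (0.18, adjusted p = 0.071) and Spry2 and Dusp1 under HFS TRF (0.40, adjusted p = 0.055 for Spry2) lost their calls, and Dusp4 gained one on both. Over all 30141 genes, 725 were called higher in this fit under NC ad lib, 1048 under HFS ad lib and 816 under HFS TRF. Without the sum these counts were 1562, 1169 and 1792. The Dusp1 differences were 0.26, 0.22 and 0.28 (adjusted p 0.43 to 0.49). In the mean over diets Dusp1 was then at 0.25 (adjusted p = 0.17) while Spry4 was at 0.75 and Dusp5 at 0.49, both still called. In that mean 1963 of all genes were called higher with the sum and 3835 without it.

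The genes whose pattern over the 12 group means was most like that of a member were named among 12928 protein-coding genes with a mean of at least 1 CPM, by Pearson's r of mean log2 CPM, as a description over means that share the same libraries. Errfi1 lay nearest to Gadd45b (r = 0.992), Atf3 (0.989) and Junb (0.987), and Dusp6 to Egr1 (0.979), Nr4a3 (0.977) and Nr4a2 (0.974), all of them immediate early or stress-induced genes. Dusp1 was nearest to Sik1 (0.984), Ier2 (0.978) and Zfp516 (0.977), and Dusp5 to P4ha1 (0.976), Arc (0.976) and Midn (0.971). Spry2 lay nearest to Atf3 (0.978), Trib1 (0.972) and Nr4a1 (0.959), whereas Spry4 lay nearest to Gpt2 (0.989), Slc25a25 (0.971) and Chfr (0.961). Spred1 was nearest to Ppp2r5a (0.980), Phospho2 (0.955) and Papola (0.954), and Dusp4 to Kdm7a (0.968), Bag3 (0.966) and P4ha1 (0.963). The 2 members that did not rise 1 h after training had other neighbours, Abl1 (0.926), Cdan1 (0.919) and Tbc1d14 (0.917) for Spry1 and Rps6ka4 (0.989), Mcrs1 (0.977) and Galns (0.976) for Mapk3. Each of these 2 had the other as its nearest member (0.778).

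The rest of the pathway was read from lists of its parts in the mean over diets. At ORM+1 h these counts stand beside 8.04% of all genes called higher and 6.59% called lower. Of 20 output genes of ERK signalling, 14 were higher and 1 lower at ORM+1 h, with a median log2 fold change of 0.84 beside -0.00 over all genes. The transcription factors Egr2 (3.66), Fosb (2.67), Egr1 (1.61) and Junb (1.53) led by adjusted p. Of 23 kinases, adaptors and Ras proteins of the cascade, 4 were higher and 5 lower with a median of 0.00, among them Mknk2 (0.47) and Mknk1 (-0.26), a pair of kinases downstream of ERK, the MEK gene Map2k1 (-0.17) and the exchange factor Sos2 (0.18).

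Of 15 receptor tyrosine kinases 7 were higher and 0 lower, with Fgfr3 at 1.08, Egfr at 0.99, Pdgfrb at 0.79 and the BDNF receptor Ntrk2 at 0.41. Of 19 ligands 6 were higher and 1 lower, among them Hbegf (0.85), an EGF receptor ligand, Vegfa (0.75), Fgf1 (0.53) and Bdnf (0.44). Of 22 other negative regulators that were tested, of 23 listed, 7 were higher and 1 lower, and their median was 0.02. Lrig1 (0.50), Dusp14 (0.23) and Spred2 (0.22) rose. The shares of all genes beside these list counts are again 8.04% higher and 6.59% lower. The astrocyte marker values above belong beside the receptor list as well, and their part in it was not tested.

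At 12 h after training, 2 of the 23 cascade genes were higher (Ksr1 0.17 and Ksr2 0.14, scaffolds of the kinases), 1 receptor (Ntrk3 0.28), 4 ligands (Nrg3 0.22 and Pdgfb 0.23 among them) and 4 other negative regulators (Dusp8 0.19 and Dusp7 0.13 among them), with 1 other negative regulator and 1 output gene (Etv5, -0.23) lower. Between zt15 and zt3, 10 cascade genes were higher and 5 lower (Shc1 0.64 and Mknk2 0.41 higher), 9 receptors higher and 1 lower (Fgfr3 1.22 and Egfr 0.83 higher), 8 ligands higher and 2 lower (Fgf1 0.57 and Tgfa 0.41 higher), 9 other negative regulators higher and 2 lower (Dusp14 0.27 and Dusp7 0.17 higher) and 11 output genes higher and 3 lower (Arc 0.85 and Junb 0.53 higher). The share of all genes called higher was 3.58% and 12.7% in these mean contrasts. At 12 h after training 6.03% were called in either direction. Between zt15 and zt3 the share called lower in the mean contrast of this fit is not given here. The lower counts of the lists therefore have no share of their own to be read against. In the same fit, 6.54% of all genes were called lower under NC ad lib, 6.54% under HFS ad lib and 8.26% under HFS TRF. Other fits, with marker sums, had 3158 of 30141 genes lower with the astrocyte sum and 5113 with the choroid plexus sum.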

How the data were processed

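Hippocampal mRNA was purified by pS6-TRAP from 71 mice, and the authors prepared stranded libraries, trimmed reads with Trim Galore (0.6.7) and cutadapt (3.4), aligned them to GRCm39 with HISAT2 (2.2.0) and obtained counts for each gene by featureCounts (Subread 2.0.3); the strand setting is not given in the sources used here. The zt3 and zt15 mice came from separate experiments by the study's description. The values are raw counts as deposited, neither filtered nor normalized. Samples were grouped by the submitters' labels.

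Genes with at least 10 counts in total (30141) were normalized by TMM and fitted in 1 model of 12 groups with edgeR (4.0.16, R 4.3.3), quasi-likelihood test, Benjamini-Hochberg adjustment over all 30141 genes within each comparison, and a threshold of 0.05. CPM uses TMM library sizes, log2 CPM a prior count of 2, and intervals are 95%. Alternatives were the DESeq2 (1.42.0) Wald test, the package named in the study's methods, its size factors, filters of at least 1 count in total and filterByExpr, only the groups compared, replicate blocks, a fold change above 1.2, and leaving out each mouse. Marker sums as covariates were added after seeing the data. The model was also run on counts simulated from its own dispersions for the NC ad lib HC zt3 and ORM+1 h mice. Such counts follow the model by design and cannot show how it behaves on the real ones. Exon lengths and positions came from a GENCODE annotation of GRCm39 that matched 56310 of 57010 genes. The members, gene lists and marker lists were chosen with earlier results of these data known. Genes outside the members were named by adjusted p in the mean contrasts (4 per list at ORM+1 h, 2 in the others) or by likeness over group means. Replicates are separate mice. Positions of sequences are those of GRCm38.p6 and were not mixed with GRCm39. Some genes of the pathway lists are not reported here by name.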

Additional observations from a re-analysis of the deposited data

Results flagged for a closer look

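Mice standing apart were found in 2 of 120 combinations of a member and a group, by the gap to the nearest mouse over the range of the group, where chance gives about 6 (1 in 20). Dusp5 in NC ad lib HC zt3 replicate 2 was at 52.2 CPM, with the other 5 mice at 33.3 to 39.3. Mapk3 in HFS ad lib ORM+12 h replicate 5 was at 157.5 CPM, with the other 5 at 179.6 to 193.1.

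The change at 12 h after training differed from the change at 1 h in 19 of 30 tests, as the later minus the earlier log2 fold change. In NC ad lib mice it was -1.45 for Dusp1, -0.75 for Dusp5, -0.72 for Dusp6, -0.79 for Spry4, -0.70 for Spred1 and -0.80 for Errfi1. In HFS ad lib mice the differences were -0.98 for Dusp5, -0.72 for Dusp6, -1.27 for Spry4 and -1.02 for Errfi1. In HFS TRF mice they were -1.64 for Dusp1, -0.95 for Dusp4, -1.05 for Dusp5, -1.08 for Dusp6, -0.76 for Spry2, -1.36 for Spry4, -0.58 for Spred1, -1.25 for Errfi1 and 0.50 for Mapk3. With the astrocyte markers in the fit, Dusp1 was no longer called in NC ad lib (-0.76, adjusted p = 0.094) or HFS TRF mice (-0.94, adjusted p = 0.052), nor was Spred1 in HFS TRF mice (-0.52, adjusted p = 0.13). Dusp6 under HFS ad lib lost its call without HC zt15 replicate 5 (-0.62, adjusted p = 0.058), and Spred1 under HFS TRF without HC zt15 replicate 5 (-0.51, adjusted p = 0.055).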

How the results depend on the processing

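No called member value changed sign under an alternative, whereas some values that did not pass did, such as Dusp1 under HFS ad lib at ORM+12 h (-0.11 to 0.11) and, without 1 mouse, Dusp6 under NC ad lib at zt15 (-0.04 to 0.17). Under other settings 1338 member values kept their side of the threshold, 60 gained a call and 31 lost one, and without 1 mouse 2734 kept theirs, 53 gained a call and 43 lost one. At 12 h after training the counts moved from 0 to 1 in HFS ad lib mice with the replicate block within condition and with DESeq2 (Spry1), from 1 to 0 in HFS TRF mice with a fold change above 1.2 or with the choroid plexus covariate, and in the mean of diets from 1 to 2 with filterByExpr, the block within condition and DESeq2 and to 0 with only the groups compared or a fold change above 1.2. At zt15 the count went from 6 to 2 in NC ad lib mice with the astrocyte covariate and from 5 to 8 in HFS TRF mice with DESeq2 and with the choroid plexus covariate. The cause was not tested.

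Without 1 mouse, the counts at ORM+1 h were 9 to 9 in NC ad lib, 6 to 8 in HFS ad lib and 9 to 9 in HFS TRF mice, at ORM+12 h 0 to 1 on each diet, and at zt15 4 to 6, 3 to 6 and 4 to 7. In the means of diets they were 9 to 9, 0 to 2 and 8 to 9, for the diet comparisons and interactions 0 to 0, and for the later against the earlier change 18 to 23 of 30.

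Replicate numbers did not pair the mice: in no pair of groups compared did every same-numbered pair correlate above 0.1. With the replicate block, members called were 9, 8 and 9 at ORM+1 h, 0, 0 and 1 at ORM+12 h and 5, 6 and 6 at zt15 (chow first, then HFS unrestricted, then HFS restricted), and 23 of 30 for the later against the earlier change. The share of all genes called in that fit is not given here, so the shifts cannot be read as particular to the members.

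Time of day, experiment and hours since training cannot be told apart, and cages were not given in the labels. The lowest count of a member in a mouse was 318 (Spry1), and the part of counting error in the spread was not tested. That no difference between diets passed the test does not show that there was none.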
